A study of Homo sapiens with 6 samples.

Results

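The genes described are 10 members of the NF-kB inflammatory programme, taken from a list of names: 8 secreted factors (IL6, CXCL8, CXCL1, CXCL2, CXCL3, IL1A, IL1B and LIF) and 2 feedback inhibitors of the pathway (NFKBIA and TNFAIP3). They are 10 of the 19945 genes that the deposited tables list for both cell lines. Of the 10, 8 reached a mean of 1 CPM over all libraries, the minimum for a test, and were among 13265 genes tested. IL6 reached it through T24 alone, and IL1A and IL1B stayed under it and are given by their reads.

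RNA was sequenced from T24 and UM-UC-3, established human bladder carcinoma cell lines. In each line 1 library was made from cells given 0.04 OD of siRNA-1 for 48 h, 1 from cells given the same amount of siRNA-2, and 1 from a negative control, so the siRNA and control groups hold 2 libraries and 1 library in each line. T24 was grown in RPMI-1640 and UM-UC-3 in DMEM, both with 10% FBS, so line and medium cannot be told apart. The labels leave the siRNA target unnamed and do not make clear whether the control was itself an siRNA; the series title and the UM-UC-3 column names give HSF1, which encodes the main activator of heat shock genes. HSF1 stood at 20.3 and 22.7 CPM with siRNA-1 and siRNA-2 in T24, against 106 CPM in the control. In UM-UC-3 it stood at 50.3 and 36.5 CPM with the siRNAs, against 138 CPM in the control. These levels were 19.1% and 21.3% of the control in T24 and 36.6% and 26.6% in UM-UC-3.

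NF-kB transcription factors are held in the cytoplasm by inhibitor proteins, of which IkBa, the product of NFKBIA, is the best known. Signals from TNF, interleukin 1 or Toll-like receptors lead to the breakdown of IkBa, and the freed factors enter the nucleus and switch on cytokine and chemokine genes. They also switch on NFKBIA itself and TNFAIP3, whose product A20 edits ubiquitin chains on signalling proteins, and both shut the pathway down again. In bladder tumours, interleukin 6 and interleukin 8 (CXCL8) are known as signals to leukocytes, vessels and the tumour cells themselves.

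The sequences below are the 100 bases before the RefSeq start site of 7 members, read 5′ to 3′ on the strand of the gene (RefSeq, GRCh38.p14). They were picked because each holds a match to the NF-kB consensus or its 9-base core close to the start. IL1A and IL1B had neither match and are not printed. Capitals mark matches to the NF-kB consensus or, in CXCL8, to its 9-base core GGAATTTCC. The windows are chr7:22727100-22727199 on the plus strand for IL6, chr4:73740469-73740568 on the plus strand for CXCL8 and chr4:73869293-73869392 on the plus strand for CXCL1. They are chr4:74099196-74099295 on the minus strand for CXCL2 and chr4:74038690-74038789 on the minus strand for CXCL3. For the feedback inhibitors they are chr14:35404750-35404849 on the minus strand for NFKBIA and chr6:137867159-137867258 on the plus strand for TNFAIP3.
IL6: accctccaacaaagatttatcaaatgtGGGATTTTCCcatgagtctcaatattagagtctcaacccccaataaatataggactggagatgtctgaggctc
CXCL8: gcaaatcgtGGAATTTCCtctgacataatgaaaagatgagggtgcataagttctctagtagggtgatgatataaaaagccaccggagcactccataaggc
CXCL1: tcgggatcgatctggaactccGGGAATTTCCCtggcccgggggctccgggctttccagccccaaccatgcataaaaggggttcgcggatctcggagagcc
CXCL2: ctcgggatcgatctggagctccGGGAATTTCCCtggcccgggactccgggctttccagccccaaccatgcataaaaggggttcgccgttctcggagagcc
CXCL3: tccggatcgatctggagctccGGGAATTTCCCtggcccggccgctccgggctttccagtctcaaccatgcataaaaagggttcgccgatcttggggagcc
NFKBIA: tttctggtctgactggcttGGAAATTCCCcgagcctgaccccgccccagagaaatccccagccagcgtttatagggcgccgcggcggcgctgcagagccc
TNFAIP3: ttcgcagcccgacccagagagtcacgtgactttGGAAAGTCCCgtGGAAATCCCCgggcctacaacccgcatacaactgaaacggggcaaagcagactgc

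Motifs were searched on both strands of the 250 bases before the start. The promoter table matched 9 of the 10 members, and LIF had no entry. The NF-kB consensus was found in 6 of the 9 (IL6, CXCL1, CXCL2, CXCL3, NFKBIA and TNFAIP3) and in 11.8% of the 27305 genes in the table. GGAATTTCC, which overlaps the consensus and was chosen after the sequences had been seen, was found in CXCL8, CXCL1, CXCL2, CXCL3 and NFKBIA and in 0.502% of genes. The AP-1 motif TGANTCA was found in CXCL8 and IL1A (8.06% of genes). The heat shock motif of 2 units, GAANNTTC, was found in IL1B alone (7.05% of genes), and the heat shock element of 3 units in none of the 9 (0.557% of genes). Each match is a description of these letters and not of binding.

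CXCL1, CXCL2 and CXCL3 are neighbours on chromosome 4 and share the 23 bases ctccgggaatttccctggcccgg around the site. The 100 bases before the start of CXCL1 and CXCL3 were identical at 90% of positions. Their coding sequences were 93.5% identical between CXCL1 and CXCL2, 90.7% between CXCL1 and CXCL3 and 94.4% between CXCL2 and CXCL3, so the levels of these 3 near copies are uncertain wherever reads matched more than 1 of them. Of all 100-base stretches of their annotated transcripts, 5.0% in CXCL2 and 3.27% in CXCL3 occurred in another of the CXC genes, and none in CXCL1 or CXCL8. IL6 and LIF each overlap 2 genes on the opposite strand and TNFAIP3 overlaps 1. The sources used here do not give the strand setting of the counting, so their reads may include those of the overlapping gene.

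**Figure D1:**
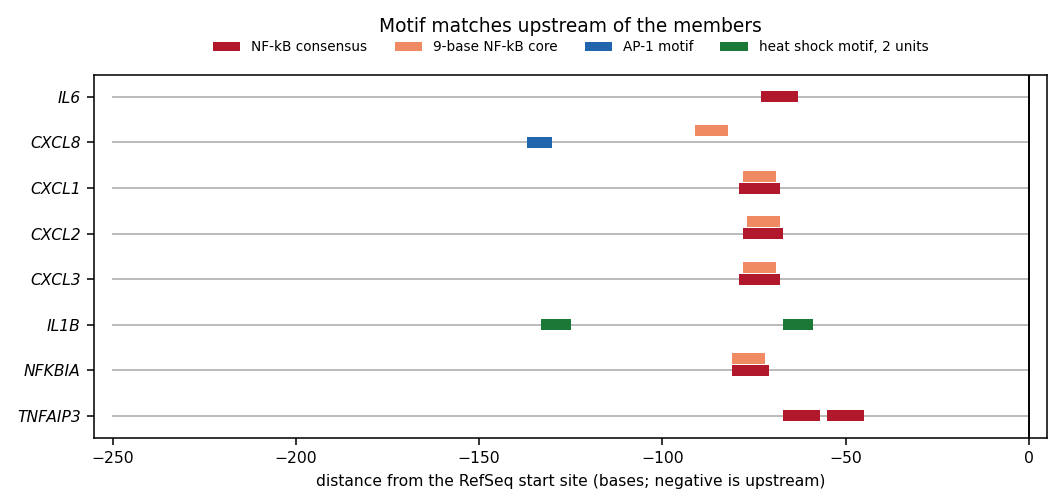
Positions of motif matches in the 250 bases before the RefSeq start site (0 on the horizontal axis, in bases) for 8 members; IL1A, which has 2 start sites in the table, is not drawn. Dark red bars are NF-kB consensus matches, orange bars the 9-base core, blue the AP-1 motif and green the 2-unit heat shock motif; the NF-kB matches all lie within the last 100 bases.

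**Figure D2:**
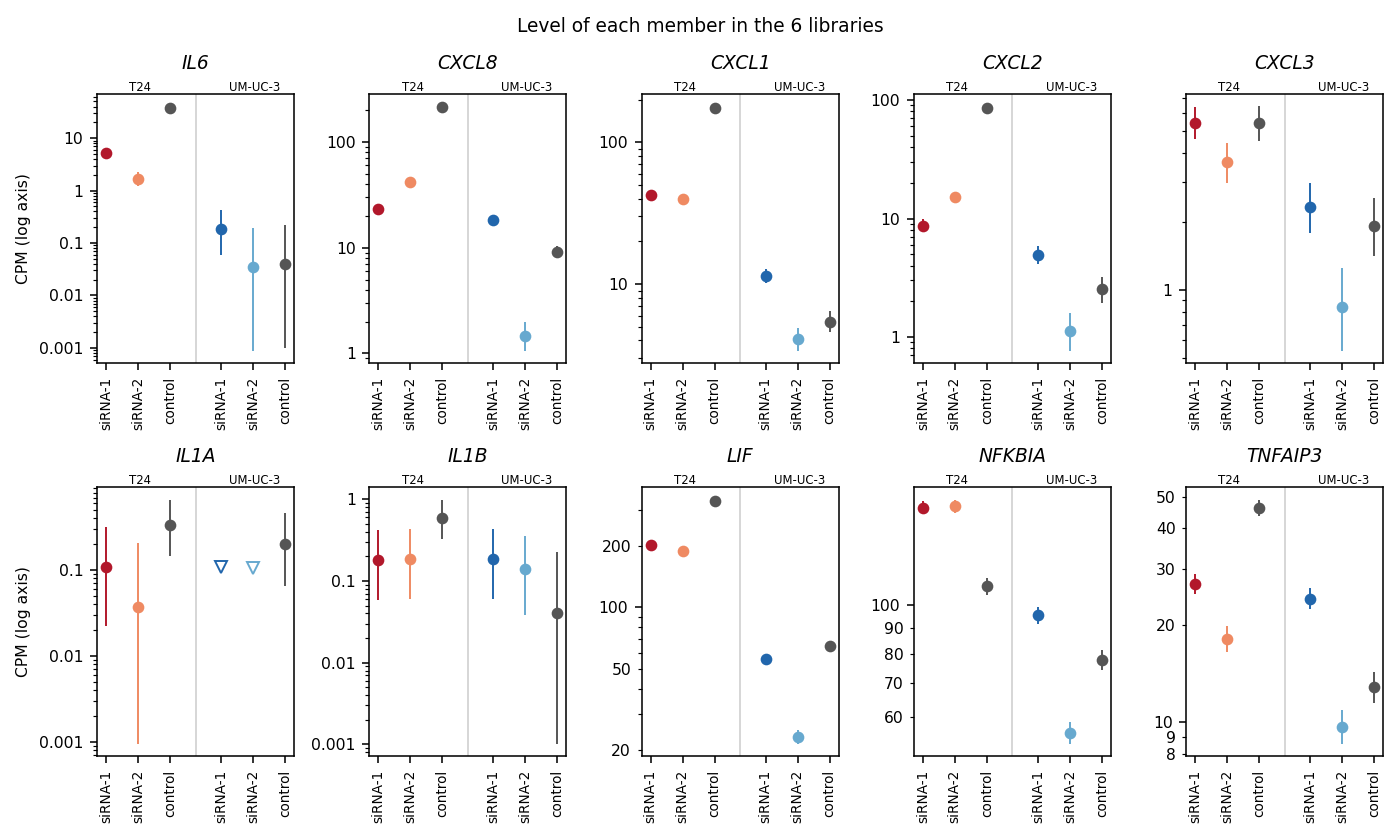
Level of each member in CPM (log axis, a range of its own in each panel) in the siRNA-1, siRNA-2 and control libraries of T24 (left of the grey line) and UM-UC-3 (right). Bars are 95% exact Poisson intervals of the reads, and open triangles mark libraries with 0 reads at the level that 3 reads would give; IL6, CXCL8, CXCL1 and CXCL2 stand far above every other library in the T24 control.

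Set against the control in T24, interleukin 6 and 3 of the 4 CXC chemokines were far lower in both siRNA libraries, LIF and TNFAIP3 were lower by less, CXCL3 was near its control, and NFKBIA was higher. Of the 8 members tested, 6 were below the control in both siRNA libraries, as were 30.1% of all genes tested. With TMM or RLE scaling CXCL3 was also below the control in both, but the share of all genes was not taken under those scalings. A level at least 2-fold below the control in both was seen for 4 of 8 members (IL6, CXCL8, CXCL1 and CXCL2) and for 5.19% of genes. Only NFKBIA of the 8 was above the control in both siRNA libraries, as were 39.0% of genes. The median log2 fold change of the 8 was -1.55, against 0.07 over all genes. In bulk RNA, fewer expressing cells and less RNA per cell cannot be told apart.

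IL6, the cytokine that signals through gp130 and STAT3, stood at 5.21 CPM with siRNA-1 and 1.68 CPM with siRNA-2 in T24, from 144 and 45 reads, against 38.2 CPM and 906 reads in the control. The siRNA libraries held 0.136 of the control (95% exact binomial interval 0.114 to 0.163, counting error only) and 0.0440 of it (0.0319 to 0.0594). Both siRNA values lay far below the control and outside each other's interval. The log2 fold change was -3.26 ± 0.52 (SE) on the log2(CPM + 1) scale, with an adjusted p of 0.175 in limma-trend, where no gene passed, and 0.000767 in DESeq2 on the recovered reads. In limma-trend its adjusted p was 0.02 without the T24 siRNA-1 library and 0.0183 without the T24 siRNA-2 library. With either left out T24 is 1 library against 1, and the spread comes from the UM-UC-3 siRNA libraries alone, where IL6 had 5 reads and 1 read.

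CXCL8, or interleukin 8, the main chemoattractant of neutrophils, stood at 23.3 CPM with siRNA-1 and 41.8 CPM with siRNA-2 in T24, against 213 CPM in the control. CXCL1, a ligand of the same receptor CXCR2, stood at 42.4 and 39.8 CPM with the siRNAs, against 174 CPM. CXCL2, also a CXCR2 ligand, stood at 8.72 and 15.3 CPM with the siRNAs, against 85.0 CPM. For these 3 genes each siRNA library was below the control, at 0.110 and 0.196 of it for CXCL8, 0.243 and 0.228 for CXCL1, and 0.103 and 0.180 for CXCL2.

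The fits gave CXCL8 a log2 fold change of -2.73 ± 1.09 (SE; adjusted p = 0.398 in limma-trend, 0.578 in DESeq2). CXCL1 had -2.06 ± 0.54 (adjusted p = 0.282 in limma-trend, 0.0257 in DESeq2). CXCL2 had -2.77 ± 0.65 (adjusted p = 0.268 in limma-trend, 0.0186 in DESeq2). Its adjusted p in limma-trend was 0.0419 without the T24 siRNA-2 library, again with 1 T24 library against 1 and the spread of the UM-UC-3 siRNA libraries alone. With the siRNA number as a replicate block, limma-trend gave an adjusted p of 2.08e-05 for IL6, 0.00655 for CXCL8, 0.00195 for CXCL1 and 0.000897 for CXCL2 in T24, where 847 genes passed. That block takes siRNA-2 to differ from siRNA-1 by the same amount in both lines. For CXCL8 the siRNA-2 level was 1.79 times that of siRNA-1 in T24 and 0.0810 of it in UM-UC-3. The block leaves almost no residual degrees of freedom, so these adjusted p rest on little spread of each gene's own. CXCL8 had the widest SE of the 8 members, and it was also the member whose siRNA libraries lay farthest apart in UM-UC-3, which enter the same estimate of spread.

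CXCL3, whose product also binds CXCR2, lay nearer to its control than its near copies did. It stood at 5.46 CPM with siRNA-1 and 3.66 CPM with siRNA-2 in T24, against 5.44 CPM in the control. The siRNA-1 library was level with the control (ratio 1.004, interval 0.789 to 1.28, and 0.904 after TMM scaling) and the siRNA-2 library was below it (0.673, 0.512 to 0.883). Its log2 fold change was -0.23 ± 0.45 (SE; adjusted p = 0.863 in limma-trend).

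Summed over the 4 chemokines, T24 held 79.9 CPM with siRNA-1 and 101 CPM with siRNA-2, against 478 CPM in the control. Their share of all reads of the 10 members was 17.0% and 21.6% in the siRNA libraries and 47.7% in the control. All 10 members together came to 470 and 466 CPM with the siRNAs, against 1002 CPM in the control. The siRNA libraries thus lay close to each other in the total, while they differed in how it was divided between IL6, CXCL8 and CXCL2.

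LIF, a cytokine of the interleukin 6 family, stood at 202 and 189 CPM with the siRNAs in T24, against 329 CPM in the control, at ratios of 0.614 and 0.572. Its log2 fold change was -0.75 ± 0.51 (SE; adjusted p = 0.579 in limma-trend, 0.628 in DESeq2). IL1A and IL1B, the interleukin 1 ligands that start NF-kB signalling, were close to the limit of detection in T24. IL1A had 3 and 1 reads with the siRNAs, against 8 in the control, and the interval of its ratio left out 1 with siRNA-2 (0.00250 to 0.826) but not with siRNA-1 (0.0550 to 1.34). IL1B had 5 and 5 reads with the siRNAs, against 14 in the control, and the intervals of its ratios (0.0864 to 0.900 with siRNA-1 and 0.0892 to 0.930 with siRNA-2) left out 1.

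The feedback inhibitors stood on opposite sides of the T24 control. NFKBIA stood at 156 and 157 CPM with the siRNAs, against 109 CPM in the control, at ratios of 1.43 and 1.44 whose intervals overlap. TNFAIP3 stood at 27.0 and 18.2 CPM with the siRNAs, against 46.3 CPM in the control, at ratios of 0.582 and 0.392. Neither passed in limma-trend or DESeq2: the log2 fold change was 0.52 ± 0.38 (SE) for NFKBIA, with an adjusted p of 0.613 in limma-trend, and -1.03 ± 0.56 for TNFAIP3, with an adjusted p of 0.495.

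Over all genes in T24, limma-trend called 0 of 13265 (0.0%), with 1607 at an unadjusted p under 0.05, 4 of them members. edgeR called 0 as well, and DESeq2 called 322 (2.43%), of which 274 were lower (2.07%). The 3 members that DESeq2 called lower were IL6, CXCL1 and CXCL2. Separate cultures are not mentioned in the labels, so each p measures only the spread between these libraries. In the T24 fit each control is alone in its group, so that spread is siRNA-1 against siRNA-2 within each line. It holds differences between the reagents and may otherwise be technical.

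**Figure D3:**
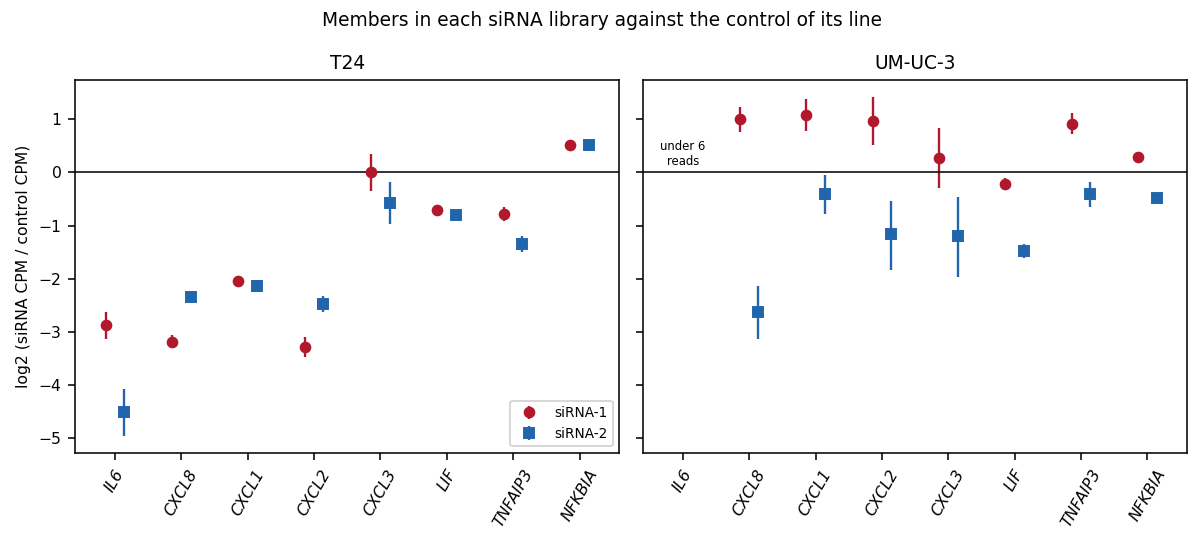
Log2 ratio of the CPM of each siRNA library to the control of the same line for the 8 members tested (siRNA-1, red circles; siRNA-2, blue squares; bars are 95% exact binomial intervals, counting error only). In T24 both siRNAs lie below 0 for IL6, CXCL8, CXCL1, CXCL2, LIF and TNFAIP3, and in UM-UC-3 the siRNAs lie on opposite sides of 0 for every member drawn but LIF; IL6 is not drawn there because no library held over 5 reads.

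In UM-UC-3 the siRNA libraries did not move together. With siRNA-1, 7 of the 8 members were above the control, as were 54.5% of genes, and with siRNA-2 all 8 were below it, as were 45.1% of genes. The same 7 members were above with siRNA-1 and below with siRNA-2, a combination seen in 14.7% of genes. LIF alone was below the control in both (30.4% of genes), and it was also the sole member below its control in 4 of 4 siRNA libraries over the lines (12.2% of genes). The count includes IL6 on 5 reads with siRNA-1 and 1 read with siRNA-2, against 1 read in the control.

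CXCL8 stood at 18.2 CPM with siRNA-1 and 1.47 CPM with siRNA-2 in UM-UC-3, against 9.08 CPM in the control. CXCL1 stood at 11.5 and 4.10 CPM with the siRNAs, against 5.44 CPM. CXCL2 stood at 4.91 and 1.12 CPM with the siRNAs, against 2.52 CPM. For these chemokines siRNA-1 gave ratios to the control near 2 (2.002, 2.11 and 1.95 for CXCL8, CXCL1 and CXCL2), while siRNA-2 gave 0.162, 0.754 and 0.445. CXCL3 stood at 2.31 and 0.842 CPM with the siRNAs, against 1.92 CPM, and only its siRNA-2 ratio of 0.438 had an interval that left out 1 (0.257 to 0.730).

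LIF stood at 56.0 CPM with siRNA-1 and 23.2 CPM with siRNA-2 in UM-UC-3, against 65.0 CPM in the control. NFKBIA stood at 95.3 and 55.7 CPM with the siRNAs, against 77.8 CPM. TNFAIP3 stood at 24.2 and 9.68 CPM with the siRNAs, against 12.8 CPM. The ratios to the control were 0.862 and 0.357 for LIF, 1.22 and 0.716 for NFKBIA, and 1.89 and 0.754 for TNFAIP3, so siRNA-2 was the lower in each.

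IL1A had 0 reads with either siRNA in UM-UC-3, against 5 in the control; a count of 0 allows up to 0.110 CPM with siRNA-1 and 0.105 CPM with siRNA-2, as 3 reads would give. IL1B had 5 and 4 reads with the siRNAs, against 1 in the control. The intervals of the IL1A ratios (0 to 0.9998 with siRNA-1 and 0 to 0.957 with siRNA-2) only just left out 1. Differences in IL1B and IL6 were not detectable in UM-UC-3 at this depth.

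No member passed in UM-UC-3. Their log2 fold changes lay between -0.83 ± 0.51 (SE, LIF) and 0.31 ± 0.54 (CXCL1), each with an adjusted p of 1 in limma-trend. The median over the 8 was -0.04, against 0.04 over all genes. limma-trend and edgeR called 0 genes in this line (0.0%), with 404 at an unadjusted p under 0.05 in limma-trend, none of them a member, and DESeq2 called 3 (0.0226%). The leave-out of 1 library sets the direction here: without siRNA-1 all 8 members lay below the control, and without siRNA-2 7 of 8 lay above it.

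The contrast between the lines was then tested as the siRNA effect in T24 less that in UM-UC-3. Both T24 changes lay below both UM-UC-3 changes for IL6, CXCL8, CXCL1, CXCL2 and TNFAIP3, 5 of 8 members, as they did for 27.5% of genes. They lay above for NFKBIA (27.4% of genes). IL6 had a difference of -3.35 ± 0.73 (SE) in log2 fold change, with an unadjusted p of 0.00303 and an adjusted p of 0.870 in limma-trend. In UM-UC-3 IL6 had 1 read in the control, so a fall there could not have shown. Its difference, its place among the 5 and its call with the replicate block below therefore rest on T24 alone. CXCL2 had -2.78 ± 0.92 and CXCL1 -2.37 ± 0.77, each with an adjusted p of 0.948. No gene passed in limma-trend or edgeR (0.0%, with 622 at an unadjusted p under 0.05 in limma-trend), and DESeq2 called 39 genes (0.294%), none of them a member. With the siRNA number as a replicate block, limma-trend called 119 genes, among them IL6 (adjusted p = 0.00314), CXCL1 (0.0333) and CXCL2 (0.0463), so the call depended on that choice. The block takes the siRNA difference to be the same in both lines and leaves almost no residual degrees of freedom.

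Over both lines, with the line as a covariate, the median log2 fold change of the 8 members was -0.83, against 0.06 over all genes. CXCL8 had -1.64 ± 0.77 (SE), IL6 -1.59 ± 0.66, CXCL2 -1.38 ± 0.63, CXCL1 -0.88 ± 0.53 and LIF -0.79 ± 0.33, with adjusted p between 0.491 and 0.606 in limma-trend. limma-trend and edgeR called 0 genes (0.0%, with 1313 at an unadjusted p under 0.05 in limma-trend, among them IL6 and LIF), and DESeq2 called 87 (0.656%), none of them a member. Without the T24 control, which leaves the UM-UC-3 contrast alone, the value of IL6 was 0.09, of CXCL1 0.31 and of CXCL2 0.01.

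The siRNAs were also set against each other. Over both lines the median fitted log2 difference of the 8 members, siRNA-2 less siRNA-1, was -0.68, against -0.04 over all genes. The difference was -1.07 ± 0.71 (SE) for CXCL8, -0.89 ± 0.37 for TNFAIP3, -0.70 ± 0.65 for IL6, -0.69 ± 0.52 for CXCL1 and -0.67 ± 0.30 for LIF. None of them passed, with adjusted p between 0.379 and 0.879 over the 8 in limma-trend, which called 37 genes (0.279%).

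The same ratio was taken within each line, from single libraries and with counting error only. In UM-UC-3 siRNA-2 held 0.0810 of the siRNA-1 level of CXCL8 (95% interval 0.0577 to 0.111), 0.229 of that of CXCL2 and 0.358 of that of CXCL1, and 0.365 to 0.585 of it for CXCL3, TNFAIP3, LIF and NFKBIA. In T24 it held 1.79 times the siRNA-1 level of CXCL8 (1.62 to 1.98) and 1.76 times that of CXCL2 (1.496 to 2.07), while CXCL1 was at 0.939 (0.863 to 1.02) and NFKBIA at 1.01 (0.965 to 1.05). IL6 stood at 0.323 of its siRNA-1 level in T24. Without the UM-UC-3 siRNA-1 library, the fitted siRNA difference of CXCL8, CXCL1 and CXCL2 turned to 0.89, 0.35 and 1.17. There siRNA-1 is the T24 library alone, and the fit takes the siRNA-2 effect to be shared by both lines. The value for CXCL1 was not seen within a line, since its direct log2 ratio in T24 was -0.09. Without the T24 siRNA-1 library, that of CXCL8 was -3.03, with an adjusted p of 1.15e-05 in limma-trend; siRNA-1 is then the UM-UC-3 library alone, taken to vary as the siRNA-2 and control libraries do. CXCL8 and CXCL2 were thus higher with siRNA-2 in T24 and lower with it in UM-UC-3, a contrast that was not tested.

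The tested members were mostly higher in T24 than in UM-UC-3. Of the 8 members, 7 were higher in all 3 T24 libraries than in all 3 UM-UC-3 libraries, as were 27.1% of genes. TNFAIP3 was the exception, since it stood at 18.2 CPM with siRNA-2 in T24 and at 24.2 CPM with siRNA-1 in UM-UC-3. In the fit all 8 members were called higher in T24 by limma-trend, as were 24.3% of genes. IL6 passed the minimum level only through T24, so its call is no evidence of its own.

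The log2 difference, T24 less UM-UC-3, was 3.19 ± 0.42 (SE) for CXCL1, 2.96 ± 0.58 for CXCL8, 2.76 ± 0.52 for CXCL2 and 1.15 ± 0.24 for CXCL3 (adjusted p = 7.73e-05, 0.00146, 0.00109 and 0.00233 in limma-trend). It was 2.38 ± 0.25 for LIF (adjusted p = 1.02e-05 in limma-trend) and 3.001 ± 0.53 for IL6. NFKBIA had 0.89 ± 0.24 (adjusted p = 0.00999 in limma-trend), which lost its call without siRNA-2 of either line (0.59, with adjusted p of 0.14 without the T24 library and 0.137 without the UM-UC-3 library). TNFAIP3 had 0.92 ± 0.30 (adjusted p = 0.0263 in limma-trend). Its value was 0.50 without either control, with an adjusted p of 0.192 without the T24 control and 0.18 without the UM-UC-3 control, and edgeR gave it an adjusted p of 0.0506. Without siRNA-2 its adjusted p in limma-trend was 0.0589 (T24 library left out) and 0.0594 (UM-UC-3 library left out), so it rested on each of these 4 libraries.

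The ratio of T24 to UM-UC-3 was also taken within each treatment, from 1 library a line and with counting error only. With siRNA-1, T24 held 1.28 times the UM-UC-3 level of CXCL8 (1.14 to 1.45), 3.70 times that of CXCL1 (3.26 to 4.20) and 1.78 times that of CXCL2 (1.43 to 2.21). With siRNA-2 the ratios were 28.4, 9.70 and 13.7. Between the controls they were 23.4 (20.5 to 26.9), 32.1 (27.0 to 38.3) and 33.7 (26.3 to 44.1). The T24 and UM-UC-3 levels of CXCL8, CXCL1 and CXCL2 were thus nearest in the siRNA-1 libraries. LIF was 3.61, 8.13 and 5.07 times its UM-UC-3 level in T24 with siRNA-1, siRNA-2 and control, and NFKBIA 1.63, 2.81 and 1.40 times. For IL6 the control ratio of 955 rests on 906 reads in T24 against 1 read in UM-UC-3, and its interval runs over 171 to 37768.

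Ordered by level within a library, and scaled to annotated exon length so that genes can be compared, CXCL1 led in the T24 control at 135 CPM per kb. CXCL8 followed at 93.6, LIF at 83.0, CXCL2 at 56.7 and NFKBIA at 45.9 CPM per kb. In both T24 siRNA libraries NFKBIA came first, at 65.6 and 66.0 CPM per kb, followed by LIF at 50.9 and 47.5 and CXCL1 at 32.7 and 30.7 CPM per kb. In all 3 UM-UC-3 libraries NFKBIA was also first, with LIF and CXCL1 after it. Neighbours in the order that did not differ beyond counting error included CXCL1 and CXCL8 in the UM-UC-3 control, at 4.20 and 3.99 CPM per kb, and IL6 and CXCL3 with siRNA-1 in T24, at 2.52 and 2.46 CPM per kb.

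The ordering of single genes over the 6 libraries can be read from the same values. CXCL8 was highest in the T24 control, then in T24 siRNA-2 and T24 siRNA-1, then in UM-UC-3 siRNA-1, UM-UC-3 control and UM-UC-3 siRNA-2, with no overlap of counting intervals between neighbours. IL6 was highest in the T24 control, then in T24 siRNA-1, T24 siRNA-2 and the UM-UC-3 libraries, whose intervals overlapped each other. For NFKBIA the T24 siRNA libraries were at the top, with overlapping intervals, followed by the T24 control, UM-UC-3 siRNA-1, UM-UC-3 control and UM-UC-3 siRNA-2.

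Among the members, patterns were compared as Pearson correlations of log2(CPM + 1) centred within each line over the 6 libraries, which share depth scaling and, within a line, treatment. CXCL1 and CXCL2 were the most alike (r = 0.961), followed by CXCL8 with CXCL2 (0.941) and TNFAIP3 with CXCL1 (0.919). LIF was nearest to CXCL8 (0.869), IL6 to CXCL1 (0.865) and CXCL3 to LIF (0.853). NFKBIA had no close partner (0.504 with CXCL3) and was negatively correlated with IL6 (-0.55).

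Outside the list, the 6 genes of 9110 candidates most like the mean of the tested members by that measure were PTPN13 (r = 0.997), SCD (0.993), HTR7 (0.985), TNFRSF25 (0.984), MYADM (0.981) and STC1 (0.981). The measure does not weigh the size of a change. PTPN13, the gene most alike, differed little from its controls. It stood at 75.1 and 73.5 CPM with the siRNAs in T24, against 81.5 CPM in the control. In UM-UC-3 PTPN13 stood at 25.8 and 23.2 CPM, against 24.8 CPM. MYADM, as an example with larger changes, stood at 145 and 143 CPM with the siRNAs in T24, against 261 CPM in the control. In UM-UC-3 it stood at 202 and 71.4 CPM with the siRNAs, against 136 CPM. It was thus lower with both siRNAs in T24 and on either side of the control in UM-UC-3. The highest correlation of many candidates over 6 libraries is a description of these libraries only.

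Other genes of the pathway were counted by role. For the NF-kB subunits and the kinases that release them the median log2 fold change in T24 was -0.10, against 0.07 over all genes. Of the list 9 of 9 were tested, 6 were negative, and limma-trend and DESeq2 called 0. In both siRNA libraries 5 of the 9 were below the control, against 30.1% of all genes, and 2 were above it, against 39.0%. RELA, the main activating subunit, stood at 209 and 175 CPM with the siRNAs in T24, against 153 CPM in the control. NFKB1 stood at 73.5 and 100 CPM, against 123 CPM, and RELB at 43.1 and 79.6 CPM, against 84.5 CPM. None of the 3 differed by as much as 2-fold in both siRNA libraries.

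Of 13 other feedback inhibitors 12 were tested, with 6 negative and a median of 0.13 in T24. Below the control in both siRNA libraries were 4 of the 12, against 30.1% of all genes, and above it in both were 4, against 39.0%. NFKBIZ, a nuclear IkB protein that many secondary NF-kB targets need, stood at 26.3 and 48.8 CPM with the siRNAs, against 134 CPM in the control (log2 fold change -1.87 ± 0.47, SE; adjusted p = 0.273 in limma-trend, 0.038 in DESeq2). It was the single gene of the 12 that DESeq2 called lower, against 2.07% of all genes. TNIP1, a partner of A20, stood at 47.7 and 103 CPM with the siRNAs, against 261 CPM (adjusted p = 0.290 in limma-trend, 0.0656 in DESeq2). NFKBIE, another IkB protein, stood at 109 and 71.3 CPM, against 53.0 CPM. BIRC3, an inhibitor of apoptosis protein, stood at 212 CPM with siRNA-1 and 754 CPM with siRNA-2, against 277 CPM, and so lay on either side of its control.

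Other secreted and surface products of NF-kB were mostly below the control in T24. Of 18 on the list 7 were tested there, with a median log2 fold change of -1.80, and 5 of the 7 were below the control in both siRNA libraries, against 30.1% of all genes. DESeq2 called 3 of the 7 lower, against 2.07% of all genes, and limma-trend none. TNF, itself a trigger of the pathway, stood at 14.3 and 14.02 CPM with the siRNAs, against 60.3 CPM in the control (-2.02 ± 0.33, SE; adjusted p = 0.199 in limma-trend, 0.00709 in DESeq2). IL11, a cytokine of the interleukin 6 family, stood at 7.92 CPM with siRNA-1 and 0.411 CPM with siRNA-2, against 28.3 CPM. CCL20 stood at 0.543 and 2.09 CPM, against 6.62 CPM. TNF, IL11 and CCL20 were all below the control in both siRNA libraries. CCL20 passed the minimum level only through the T24 control, so its place among the 5 is no evidence of its own. Its log2 fold change is also the median of the 7. The other 2 genes that DESeq2 called were CSF1 and CCL5, named here after their values were seen, and CCL5, a chemokine for T cells, stood at 1.45 and 0.336 CPM, against 36.2 CPM. IL32 and SOD2, also named after their values were seen, were the tested genes not below the control in both siRNA libraries. IL32 stood above it with both siRNAs, at 11.4 and 10.9 CPM, against 5.95 CPM. SOD2 lay on either side of it, at 132 and 221 CPM, against 193 CPM. In UM-UC-3 the median of the 7 was -0.39. CCL2 was analysed in UM-UC-3 alone, where it stood at 41.3 and 27.7 CPM with the siRNAs, against 42.6 CPM. CXCL10 was analysed in T24 alone, at 0.145 and 0 CPM against 1.77 CPM, as was CSF3, at 1.63 and 0.523 CPM against 1.60 CPM. PTGS2, ICAM1 and TNFSF15, named after their values were seen, were also analysed in T24 alone. PTGS2 was below the control with both siRNAs, at 20.9 and 18.5 CPM against 120 CPM. ICAM1, at 202 and 105 CPM against 137 CPM, and TNFSF15, at 5.28 and 18.4 CPM against 16.4 CPM, lay on either side. CSF2 stayed under the minimum level, at 0.253 and 1.05 CPM with the siRNAs in T24, against 1.10 CPM.

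The transcription factors that act beside NF-kB at these promoters were mostly below the control in T24. Of 8 tested, 5 were below it in both siRNA libraries, against 30.1% of all genes, and the median log2 fold change was -0.82. DESeq2 called 2 of the 8 lower, against 2.07% of all genes, and limma-trend none. The 2 were FOS and ATF3, named here after their values were seen. FOS, an AP-1 subunit, stood at 11.3 and 5.12 CPM with the siRNAs, against 212 CPM. JUNB, another AP-1 subunit, stood at 95.5 and 68.4 CPM, against 159 CPM, and CEBPB, a known activator of IL6, at 46.2 and 59.3 CPM, against 84.3 CPM, and neither was called. FOSL1 stood at 453 and 348 CPM, against 436 CPM, and CEBPD at 9.30 and 6.95 CPM, against 5.36 CPM, so 2 named partners did not lie below the control in both siRNA libraries. In UM-UC-3 the median of the list was 0.12.

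Receptors and signalling genes downstream of the cytokines showed no common direction in T24. Of 16 receptors and adaptors 11 were tested, with 5 negative and a median log2 fold change of 0.04. Below the control in both siRNA libraries were 3 of the 11, against 30.1% of all genes, and above it in both were 3, against 39.0%. IL6R stood at 8.54 and 20.002 CPM with the siRNAs, against 5.36 CPM in the control. IL6ST, which encodes gp130, stood at 601 and 236 CPM, against 514 CPM, and LIFR at 4.74 and 4.22 CPM, against 7.89 CPM. CXCR1 and CXCR2, the receptors of the CXC chemokines, were not analysed here. IL1R1 stood at 23.7 and 10.2 CPM, against 9.41 CPM, and IL1RAP at 16.1 and 27.8 CPM, against 20.7 CPM, and IL1RN was not analysed here. All genes of this list were without a call in limma-trend and DESeq2.

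The JAK-STAT3 list had 8 of 8 tested, 5 of them negative, and a median of -0.05 in T24. Below the T24 control in both siRNA libraries were 2 of the 8, against 30.1% of all genes, and above it in both were 2, against 39.0%. SOCS3, a STAT3 target that blocks gp130 signalling, stood at 49.6 and 44.8 CPM with the siRNAs in T24, against 90.2 CPM in the control. In UM-UC-3 it stood at 24.2 and 18.0 CPM, against 38.5 CPM, so it was below the control in 4 of 4 siRNA libraries, as were 12.2% of all genes. Over both lines its log2 fold change was -0.89 ± 0.24 (SE; adjusted p = 0.424 in limma-trend and 0.038 in DESeq2, which called 0.422% of genes lower). Of 7 factors of AU-rich mRNA decay, 5 were negative in T24, with a median of -0.11. Below the T24 control in both siRNA libraries were 4 of the 7, against 30.1% of all genes. ZFP36, the decay factor of many cytokine mRNAs, stood at 63.5 and 47.9 CPM with the siRNAs in T24, against 64.3 CPM. The AU-rich nonamer TTATTTATT that marks such mRNAs was found in the annotated 3' UTR of 7 of the 10 members (all but IL6, IL1A and NFKBIA) and of 7.12% of 19146 genes. Of 7 further genes of the interleukin 1 family and its processing 3 were tested, with a median of -0.23 in T24.

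**Figure D4:**
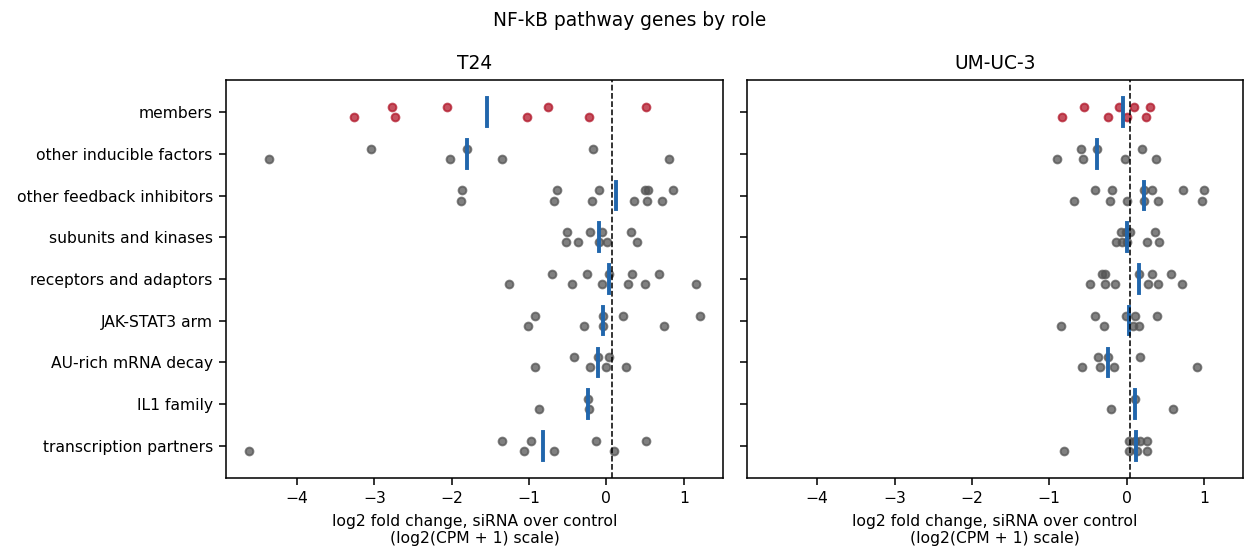
Log2 fold change, siRNA over control, on the log2(CPM + 1) scale in T24 (left) and UM-UC-3 (right) for each tested gene of the member list (red) and of the other pathway lists (grey). Blue bars are the median of each list and the dashed line is the median of all 13265 genes; in T24 the medians of the members (-1.55), the other inducible factors (-1.80) and the transcription partners (-0.82) lie to the left of it.

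The libraries held 23709089 to 28504833 reads assigned to genes, so that 1 read was worth 0.0351 to 0.0422 CPM. Pearson correlations of log2(CPM + 1) over the genes tested were 0.944 to 0.960 within T24, 0.975 to 0.984 within UM-UC-3 and 0.799 to 0.837 between the lines. As a check of cell type, the keratins KRT8 and KRT18 were present in both lines, while KRT7 stood at 0.702 to 1.60 CPM in UM-UC-3. The epithelial markers summed to 211 to 1130 CPM, but the defining epithelial genes EPCAM and CDH1 reached at most 0.211 CPM in T24. Neither was analysed in UM-UC-3. Urothelial markers summed to 5.86 to 16.3 CPM in T24, mostly from PPARG, and to 2.52 to 3.58 CPM in UM-UC-3. UPK2 reached at most 0.112 CPM and GATA3 at most 1.16 CPM in any library. Markers of blood cells and macrophages, which can make the same cytokines, summed to 1.05 and 3.29 CPM with the siRNAs in T24, against 1.98 CPM in the control. They summed to 1.36 and 2.25 CPM with the siRNAs in UM-UC-3, against 1.32 CPM. Of their 7 markers 3 were analysed in both lines, and PTPRC, which all leukocytes carry, reached at most 0.224 CPM in T24. The mesenchymal markers VIM and CDH2 summed to 135 and 218 CPM with the siRNAs in T24, against 372 CPM in the control, and their part in the T24 results was not tested. Endothelial markers summed to at most 4.40 CPM and fibroblast markers to at most 12.3 CPM in any library.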

How the data were processed

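RNA from 6 libraries was analysed from the values the authors deposited, which are CPM, reads scaled to the library total, per the file headers. Tools listed in the submitters' processing notes are bcl2fastq 2.19.1, HTSeq 0.6.1 and HISAT2 2.1.0, and the build listed is GRCh37 (hg19). In each library 100% of values were whole multiples of 1 read within 0.01, so whole reads were recovered. Values absent from a library but listed for another library of the line were set to 0, in the controls as well. This was done for 435 to 711 genes a library, with 567 in the T24 control and 625 in the UM-UC-3 control. Such values were assumed to be at most 4 reads.

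Genes were joined by Ensembl identifier. limma-trend (limma 3.58.1, R 4.3.3) was run on log2(CPM + 1) for 13265 genes with a mean of at least 1 CPM, with Benjamini-Hochberg adjustment over all of them and a threshold of 0.05. A fold change on this scale understates the change of low genes. Within a line and for the difference, 1 fit of 4 group means was used, which takes a lone control to vary as much as siRNA libraries do. The line comparison used the 3 treatments as covariates. edgeR 4.0.16 and DESeq2 1.42.0 on the recovered reads were alternatives, beside another pseudocount, no filter, other scaling and the leaving out of each library. The fits were tested on simulated data. Intervals of ratios are exact binomial and those of levels exact Poisson, at 95%.

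Genes were named by rule: the members, HSF1, a set of named pathway genes, and the 6 genes most like the members. The members, lists and rule were chosen with earlier results of these data known. Gene structures came from GENCODE and sequences from RefSeq, both on another build than the processing notes give, and were matched by identifier or symbol.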

Additional observations from a re-analysis of the deposited data

How the results depend on the processing

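Counts of genes called were 0 by limma-trend within T24, within UM-UC-3, for their difference and over both lines. DESeq2 gave 322, 3, 39 and 87. T24 had 2 without the filter and 0 to 566 when a library was left out (76 without its siRNA-1, 566 without its siRNA-2, with the spread of the UM-UC-3 siRNA libraries alone). With the siRNA number as a replicate block T24 had 847 genes, UM-UC-3 12, the difference 119 and both lines 0; IL6, CXCL8, CXCL1 and CXCL2 then passed in T24, and IL6, CXCL1 and CXCL2 in the difference. Same-numbered deviations correlated at 0.417 over 2 pairs, and the labels give the number only as the siRNA. Deviations from the mean of a group of 2 libraries are equal and opposite, so the 2 pairs are not independent. The block also takes the siRNA difference to be shared by both lines and leaves almost no residual degrees of freedom. Without the replicate block the line comparison had 5253 genes in place of 6080. For siRNA-2 against siRNA-1 the 37 genes became 0 without the filter, with TMM-scaled CPM and in edgeR with TMM or RLE, 253 in DESeq2 and 0 to 485 without 1 library. With siRNA-1 alone, 2 of the 8 members (CXCL3 and NFKBIA) were above the T24 control, as were 56.9% of genes. In UM-UC-3 all 8 were below the control with siRNA-2 alone, as were 45.1% of genes. With siRNA-1 alone 7 of the 8 were above it there, as were 54.5% of genes.

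Of 673 values 31 changed sign, and the cause was not tested. The 673 include counts of genes, which cannot change sign. Values within a line also stay the same when a library of the other line is left out. With another scaling, pseudocount or tool, UM-UC-3 values of CXCL2 were -0.0578 (pseudocount 0.25) and -0.0398 (TMM-scaled CPM), and those of CXCL8 0.0494 (edgeR, TMM), 0.0628 (edgeR, RLE) and 0.0643 (DESeq2). The difference was -0.0196 for CXCL3 with TMM-scaled CPM and -0.00139 in edgeR with TMM, and for LIF -0.0652 in edgeR with TMM and -0.0577 with RLE and in DESeq2. With 1 library left out, the ranges over both lines were -3.26 to 0.0897 for IL6, -2.06 to 0.31 for CXCL1, -2.77 to 0.00893 for CXCL2, -0.0927 to 0.52 for NFKBIA and -1.03 to 0.25 for TNFAIP3, with the changed sign when the T24 control was absent and UM-UC-3 alone was compared. CXCL3 in T24 ran over -0.47 to 0.00518, the upper end without siRNA-2. In UM-UC-3 the ranges were -0.00685 to 0.19 for IL6, -2.03 to 0.93 for CXCL8, -0.34 to 0.95 for CXCL1, -0.73 to 0.75 for CXCL2, -0.66 to 0.18 for CXCL3, -0.47 to 0.29 for NFKBIA and -0.37 to 0.87 for TNFAIP3, the lower end without siRNA-1 and the upper without siRNA-2. The difference ran over -0.41 to 0.43 for CXCL3 (-0.22 without T24 siRNA-1) and -0.54 to 0.70 for LIF, the lower end without UM-UC-3 siRNA-2. Between siRNAs it ran over -1.92 to 0.52 for IL6, -3.03 to 0.89 for CXCL8, -1.73 to 0.35 for CXCL1, -1.90 to 1.17 for CXCL2 and -0.82 to 0.0658 for NFKBIA. With an siRNA library left out, these fitted values mix both lines and are not differences within a line.

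Depth limits IL6, IL1A and IL1B in UM-UC-3, and 1 control in each line limits every comparison.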
